A study of Schizosaccharomyces pombe with 2 samples.

Results

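The genes *ste11* and *map1* of fission yeast encode transcription factors of mating, and their transcripts were measured in nitrogen-starved wild-type and *lsg1Δ* cells. They are 2 of the 4997 features on the array used, and both were selected on their lower signal in *lsg1Δ*, so their ratios are given as a description with no test. The files hold feature identifiers only. A feature was named when its ratio in the authors' deposited table equaled the number listed for a gene in the supplementary table of downregulated genes to within 0.00005, which named 64 features. In this way *ste11* (SPBC32C12.02) is TI4896S002536 and *map1* (SPAC11E3.06) is TI4896S004928. The wild-type strain JY450 carries *h90 ade6-M216 leu1*, and JT659 carries *h90 lsg1::kanR ade6-M216 leu1*, with the whole *lsg1* reading frame replaced. Cells of both strains left mid-log growth in minimal medium for the same medium without nitrogen and were collected after 2.5 h (the treatment field alone says 2 h). Total RNA of each strain was labeled with Cy3 and hybridized to 1 array. There are no replicates, so the strains cannot be told apart from the 2 cultures or the 2 arrays, and no p-value is given.

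Ste11 is an HMG-box activator that switches on the genes of mating and early meiosis when nitrogen runs out. It binds the TR box, and it is known to act on its own gene as well. Map1 is a MADS-box factor that works with the mating-type protein Mat1-Pc in P cells to activate the genes specific to that mating type. Lsg1 is the γ subunit of CTDK-I, a kinase complex that acts on the tail of the largest polymerase II subunit. An *h90* culture switches mating type and therefore holds P and M cells together. In bulk RNA from such a culture, fewer cells of a mating type and less transcript per cell cannot be told apart.

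Each feature has 7 probes (1 of the 4997 has 5), and each probe is printed at 2 spots. The median scanned intensity over all spots was 6737 for wild-type and 5685.5 for *lsg1Δ*, so the wild-type array was 1.18-fold brighter. The 5th percentile of spots, 1108.65 for wild-type and 912 for *lsg1Δ*, served as the background level, because the files carry no control probes. The deleted *lsg1* was examined first, and its 14 spots read 1339 to 12486 in wild-type and 154 to 221 in *lsg1Δ*. No spot of *ste11* or *map1* reached the scanner's ceiling.

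The *ste11* signal was lower in *lsg1Δ* at every probe. Its 14 spots read from 19154 to 39210 in wild-type (median 24062) and from 5109 to 15479 in *lsg1Δ* (median 7632). All *ste11* spots in wild-type were brighter than every *ste11* spot in *lsg1Δ*, with no scaling for the 1.18-fold brighter wild-type array. The share of all features with such a separation was not counted, so nothing is read from it. At position 97, the lowest in the file's numbering of *ste11* probes, the 2 spots read 22153 and 24939 in wild-type and 6160 and 7236 in *lsg1Δ*. At position 305, the brightest probe, they read 39210 and 37258 against 15479 and 11621. This last pair differed by 0.41 on the log2 scale, the widest gap between duplicate spots of *ste11*, against a median gap of 0.14. The probe at position 563 gave 22031 and 23699 in wild-type and 7296 and 8245 in *lsg1Δ*. At position 805 the readings were 24425 and 22092, and 7370 and 7676. The strains stayed apart at these middle probes by a similar factor. At position 975 wild-type spots gave 27594 and 30660, and *lsg1Δ* spots 10231 and 9695. The probe at 1056 had 22842 and 24845 in wild-type and 7588 and 8359 in *lsg1Δ*. The last probe, at position 1304, was the dimmest in either strain, with 20147 and 19154 in wild-type and 5109 and 5836 in *lsg1Δ*. As scanned, with no scaling for the brightness of the arrays, wild-type exceeded *lsg1Δ* by 2.82-fold to 3.59-fold over the 7 probes.

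The *map1* signal was also lower in *lsg1Δ* at every probe, but it lay far closer to background. Its 14 spots read from 1030 to 4893 in wild-type (median 4313) and from 462 to 1421 in *lsg1Δ* (median 1059). These ranges overlap only because of the first probe, at position 30, which read 1054 and 1030 in wild-type and 496 and 462 in *lsg1Δ*, below the background level on both arrays. At the probe at 309 wild-type read 4358 and 4508, and *lsg1Δ* read 783 and 827, below background on that array. At position 504 the readings were 4799 and 4287 against 1098 and 961. The probe at 636 gave 4339 and 4893 in wild-type and 1405 and 1326 in *lsg1Δ*. Apart from the first probe, the wild-type probes of *map1* were thus of similar brightness along the gene, while those of *lsg1Δ* differed more among themselves. At position 963 wild-type had 3504 and 3354, and *lsg1Δ* had 905 and 1038. At 1058 the spots read 3832 and 4280 in wild-type and 1127 and 1080 in *lsg1Δ*. At 1103, the last probe, they read 4564 and 4431 against 1421 and 1340. At all 7 probes the 2 wild-type spots were brighter than the 2 *lsg1Δ* spots, again with no scaling and no count over other features. Of the 7 probes, 6 were above background in wild-type and 5 in *lsg1Δ*. In *lsg1Δ* all 7 read above 221, the highest spot of the deleted *lsg1*.

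**Figure D1:**
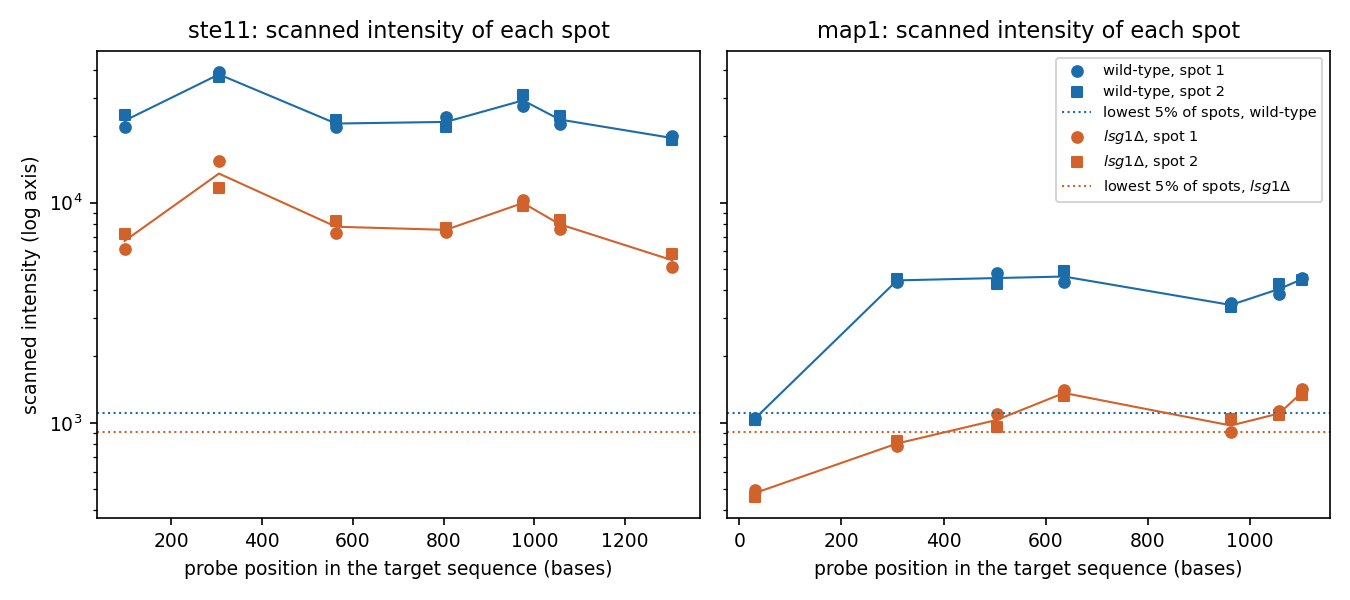
Scanned intensity (log axis) of each spot of *ste11* and *map1* against the position of its probe in bases; blue is wild-type, orange is *lsg1Δ*, circles and squares are the 2 spots of a probe, lines join their means, and dotted lines mark the 5th percentile of spots on each array. The unscaled spots of the 2 strains do not overlap for *ste11*. The means of 2 of the 7 *map1* probes in *lsg1Δ* lie under the dotted line of that array.

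After normexp background correction (offset 50), quantile normalization and median polish over probes, *ste11* was 2.67-fold lower in *lsg1Δ* (log2 ratio -1.41, SD 0.15 over 7 probes). The SD is a spread among probes of 1 hybridization per strain and not an error between cultures. The 5 middle probes had log2 ratios between -1.46 and -1.34, and the outermost ones stood at -1.66 (position 97) and -1.71 (position 1304). The probe with the smallest difference, at 305, was also the brightest. All 7 probes of *ste11* were past 2-fold. For *map1* the same steps gave a 4.35-fold lower level (log2 ratio -2.12, SD 0.60 over 7 probes). Normexp fitted a mean background of 586 in wild-type and 459 in *lsg1Δ*, where the spots of the deleted *lsg1* read only 154 to 221. Each of the other background treatments given below lowered *map1* by less. The probes of *map1* ran in order of position from -1.11 through -3.05, -2.48, -1.87, -2.16 and -2.12 to -1.80. The extreme values were those of the 2 probes below background in *lsg1Δ*, at 30 and 309. Over the other 5 probes the log2 ratios lay between -2.48 and -1.80 with an SD of 0.27, and their summary was again -2.12. With 2 arrays, median polish returns the median probe ratio, which stays the same when the highest and the lowest are left out. The equal summary is therefore no check on the dim probes, and the narrower SD follows from leaving out the extremes. The probe spread of *map1* was wide for its brightness. Among the 1048 features whose wild-type level lay within 0.5 of that of *map1* on the log2 scale, the median probe SD was 0.16. For *ste11*, with 619 features in such a window, it was 0.13, close to its own SD.

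**Figure D2:**
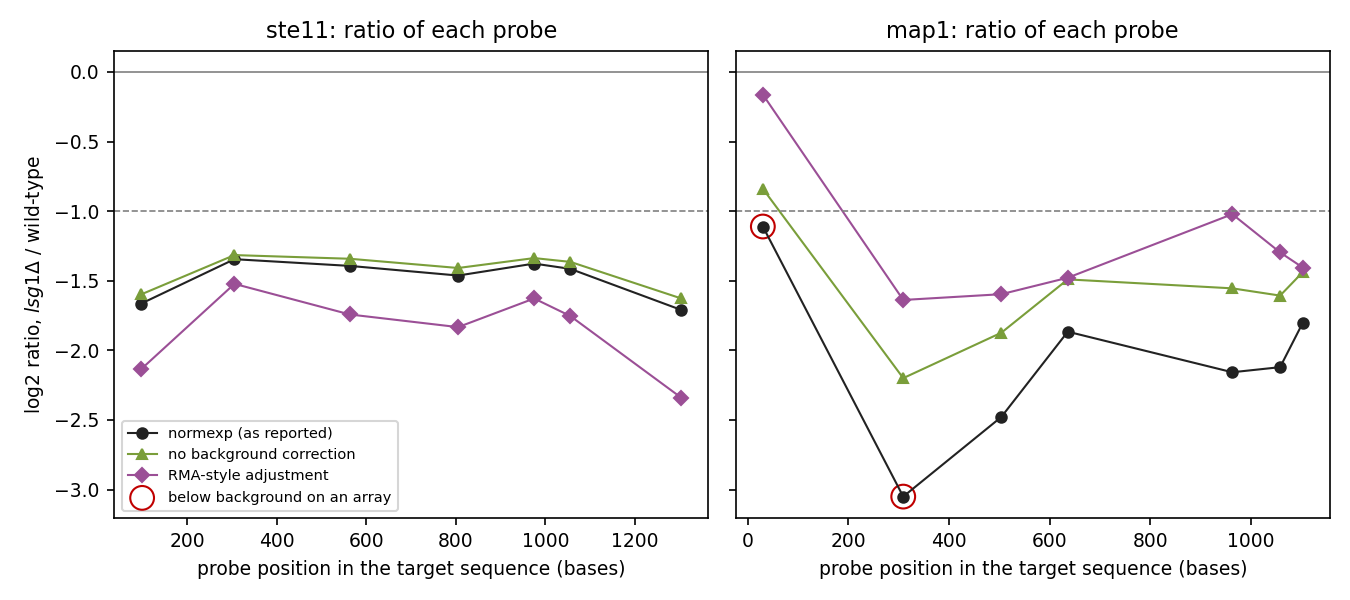
The log2 ratio of *lsg1Δ* over wild-type for each probe of *ste11* and *map1* against probe position in bases, with 3 treatments of background; red rings mark probes below the background level on at least 1 array, and the dashed line marks a 2-fold lower level. With normexp the 5 middle *ste11* probes lie between -1.46 and -1.34 and the outermost at -1.66 and -1.71, whereas the *map1* probe at 309 moves from -3.05 with normexp to -2.20 with no correction and -1.64 with the RMA-style adjustment.

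Whether *map1* or *ste11* was lowered more depended on how background was treated. With the processing above the difference in log2 ratio, *map1* minus *ste11*, was -0.71, and the probe ranges, -3.05 to -1.11 and -1.71 to -1.34, overlapped. The difference was -0.19 when background was not corrected and -0.24 with the authors' deposited normalized values. With an RMA-style background adjustment the order turned, with *map1* at -1.40 and *ste11* at -1.75, a difference of 0.35. The deleted *lsg1*, at a wild-type level of 11.32 against 11.66 for *map1*, was at -1.29 with that adjustment. Its ratio was -4.13 with normexp and -3.93 with no correction, and the reason was not tested. The dimmest *ste11* probe in *lsg1Δ* had a mean of 5472.5, far over the background level of 912. Even so, the log2 ratio of that probe went from -1.71 with normexp to -2.34 with the RMA-style adjustment. The *ste11* ratio was -1.36 with no correction and -1.67 in the deposited table, and the corresponding *map1* ratios were -1.55 and -1.91. The array's own reading of a missing transcript gave a further setting, added after the values were seen, in which each array was lowered by the intensity at the percentile of the deleted *lsg1* probes. It also set a floor of 50 and used median scaling in place of quantile normalization, so more than the background differed. With this setting *ste11* was at -1.36 and *map1* at -1.81. Over the 13 settings *ste11* was 2.56-fold to 3.37-fold lower in *lsg1Δ*, and *map1* was 2.65-fold to 4.44-fold lower. Both were past 2-fold in each of the 13, and *map1* had the lower ratio in 12 of them. Depending on the setting, 39 to 66 of the 4997 features passed that cutoff downward. Both genes were taken from a list whose members all pass it in the deposited table, which is itself among the 13. Every setting rests on the same 2 arrays. Nothing is therefore read from how many settings put the genes past 2-fold.

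**Figure D3:**
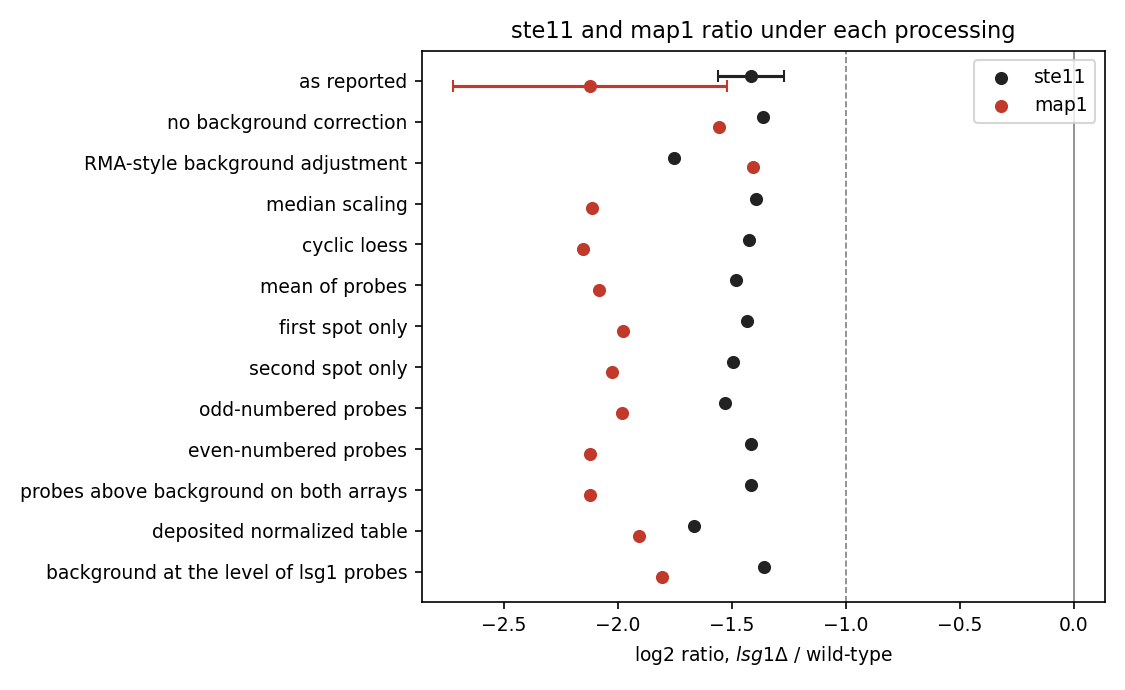
The log2 ratio of *lsg1Δ* over wild-type for *ste11* (black) and *map1* (red) under each of 13 processing settings; bars on the top row are the SD over 7 probes, and the dashed line marks a 2-fold lower level. The order of the genes turns only with the RMA-style adjustment, where *map1* is at -1.40 and *ste11* at -1.75.

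The place of each gene among all features moved between the arrays. Ranks of array signal also reflect the probes and are no count of transcripts, so each gene is compared with itself. By normalized log2 level *ste11* stood at 14.36 in wild-type, above 92.6% of the 4997 features (rank 369 from the top), and at 12.95 in *lsg1Δ*, above 62.3% (rank 1884). In *lsg1Δ* the *ste11* signal was thus still above that of most features. By the same measure *map1* stood at 11.66 in wild-type, above 28.2% of features (rank 3590), and at 9.54 in *lsg1Δ*, above 4.34% (rank 4780). The *map1* level in *lsg1Δ* was therefore among the dimmest on the array. The deposited table placed the genes alike. There *ste11* had 19223.4 in wild-type (rank 346) and 6060.54 in *lsg1Δ* (rank 1861), on a linear scale. The deposited values of *map1* were 1754.4 (rank 3570) and 468.06 (rank 4823), and the lowest deposited value on the *lsg1Δ* array was 333.33. The deleted *lsg1* held that lowest value, and its log2 ratio was -1.87 in the deposited table against -4.13 with the processing above. How near to that lowest value a ratio starts to be compressed was not tested.

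Both genes lay outside the range of most features of like brightness, which follows from their choice on a lower ratio in these arrays. In the windows described above, the log2 ratio ran from -0.38 (5th percentile) to 0.26 (95th percentile) around *ste11*, and from -0.44 to 0.47 around *map1*. Of the 4997 features in all, 53 (1.06%) were past 2-fold downward in *lsg1Δ*, 17 (0.34%) were past 2-fold upward, and the median log2 ratio was 0.01. Both genes were among the 53, at places 26 (*ste11*) and 11 (*map1*) from the lowest ratio. They were chosen on this same contrast, so nothing is read from that count, from their places or from the windows. The spread between duplicate blocks of spots was small beside these ratios. With the first spots alone *ste11* and *map1* were at -1.43 and -1.98, and with the second spots alone at -1.50 and -2.02, while the median gap between the blocks was 0.08 over all features.

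**Figure D4:**
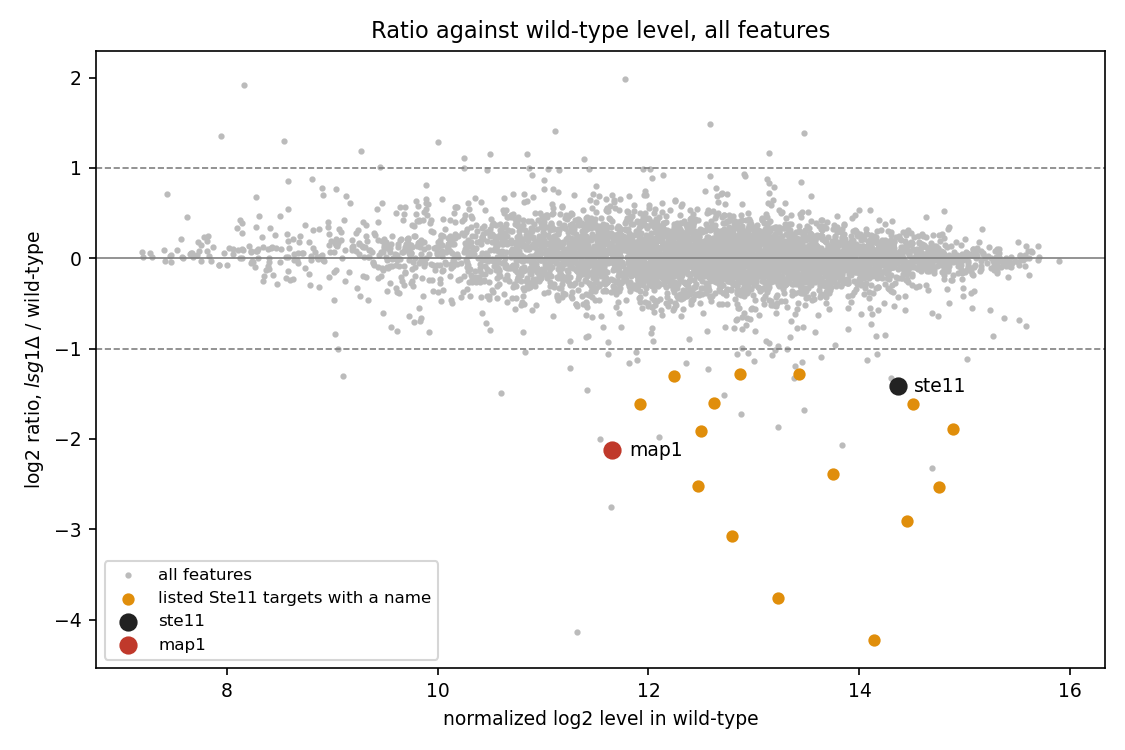
The log2 ratio of *lsg1Δ* over wild-type against the normalized log2 level in wild-type for all 4997 features (gray), the listed Ste11 targets that could be named (orange), *ste11* (black) and *map1* (red); dashed lines mark 2-fold. The point for *ste11* lies at a wild-type level of 14.36 and that for *map1* at 11.66, both below the lower dashed line.

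Genes known to act under Ste11 were also lower in *lsg1Δ*, as far as they could be named. Of 21 listed targets, *map1* among them, 16 were named, and all 16 were past 2-fold downward, their log2 ratios lying between -4.22 and -1.28 with a median of -2.02 (15 with no background correction). The other 5, *mfm3*, *fus1*, *rep1*, *mat1-Pi* and *mat1-Mc*, are not analysed here. Only genes of a table of downregulated genes, drawn from these same arrays, could be named, and 48 of those 64 were past 2-fold here, against 1.06% of all features. This choice fixes the direction in each gene list given here, so no list count is evidence of direction, and a target with a small difference could not appear. The meiotic regulator gene *mei2* was at -2.53 (SD 0.41), and the G protein regulator gene *rgs1* at -2.91 (SD 0.45). The named targets nearest to 0 were *sxa2*, a carboxypeptidase that degrades P-factor, at -1.30 (SD 0.24), *mam1*, the M-factor transporter, at -1.29 (SD 0.22), and *gpa1*, the G protein α subunit of pheromone signaling, at -1.28 (SD 0.32). These lie within the probe SDs of *ste11*.

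The 3 listed genes of P cells that need Map1 were all named, and each had a log2 ratio below -1. The P-factor precursor gene *map2* had a log2 ratio of -4.22 (SD 0.74), *map3*, whose product is the receptor for M-factor, had -2.39 (SD 0.70), and the adhesin gene *map4* had -1.88 (SD 0.52). The *map1* ratio of -2.12 lies among these values. Among 7 listed genes of M cells, 6 were named and the 6 were past 2-fold, with log2 ratios from -3.76 for *mfm1*, an M-factor precursor gene, to -1.29 for *mam1*, with a median of -1.76 (5 with no background correction). The named genes of both lists are also among the 16 named Ste11 targets, so they are counted again here. So are *ste6*, *ste4*, *spk1* and *gpa1* of the cascade below. The counts of both lists follow from how genes could be named, and nothing about a mating type or Map1 is read from them. In the Ras1 and MAP kinase cascade that carries the pheromone signal, 6 of 9 genes were named and 5 were past 2-fold, beside 48 of the 64 named features and 1.06% of all features. The exception was the MAP kinase kinase gene *byr1* (-0.88, SD 0.10), which was past 2-fold in the deposited table (-1.02). Of 12 listed regulators upstream of *ste11*, only *mei2*, listed for its feedback on *ste11*, was named, and the others are not analysed here.

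By the pair of normalized log2 levels on the 2 arrays, the features nearest to *ste11* were SPACUNK4.17 (distance 0.07), the mating MAP kinase gene *spk1* (0.16) and SPAC637.03 (0.25). Their log2 ratios were -1.33, -1.62 and -1.06. Nearest to *map1* were *dni2*, a gene of cell fusion (distance 0.11, log2 ratio -1.999), *mam4*, the methyltransferase of M-factor (0.49, -1.46), and *mug14* (0.64, -1.22). For both genes the 3 nearest of all features were the 3 nearest of the named ones. Features near in both levels have like ratios by construction, and 48 of the 53 features past 2-fold downward were named ones. Nothing is therefore read from which features were nearest. A likeness over 2 arrays rests on 2 values per gene.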

How the data were processed

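The deposited scanner files, acquired for the authors by Roche Applied Science, hold the linear intensity of each spot, with mismatch values of 0 throughout. A second deposited table holds normalized intensities on a linear scale. The sources used here do not give its method, and its 9994 rows are 4997 rows given 2 times, taken once, in the order of the sorted feature identifiers. In that order its log2 values correlated across features with those computed here (Pearson r 0.98 on either array).

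Processing used limma 3.58.1 in R 4.3.3: normexp with offset 50, quantile normalization over spots, the mean of duplicate spots on the log2 scale, and median polish over probes. Steps were run on simulated arrays, made by applying known folds and spot noise to the scanned intensities. No separate background was simulated, so that run cannot check the background correction. Ratios (log2) set lsg1Δ over wild-type, and a ratio was called past 2-fold when its size exceeded 1. A feature's probe was above background over the 5th percentile of spots of its array. With 1 array per strain no test was run, and precision is limited by the number of arrays. Gene names follow the supplementary table and, by locus, RefSeq of ASM294v3. Figures used matplotlib 3.10.9.

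The genes named are ste11, map1 and lsg1, members of 5 lists (Ste11 targets, P-cell genes, M-cell genes, the Ras1 and MAP kinase cascade, upstream regulators), and the 3 features nearest to ste11 and to map1. The members and lists were chosen with earlier results of these data known. Values of the supplementary table served only to name features.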

Additional observations from a re-analysis of the deposited data

How the results depend on the processing

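No paired analysis was possible because there is a single array for either strain, and for the same reason no replicate could be left out. A total of 11 alternatives were planned and 1, a background at the level of the lsg1 probes, was added after seeing the data. The log2 ratio of ste11 moved by more than its probe SD with the RMA-style background adjustment (-1.75) and in the deposited table (-1.67). That of map1 did so with the RMA-style adjustment (-1.40), where the difference of map1 minus ste11 also turned from -0.71 to 0.35. The count of features higher by more than 2-fold was 17, but 6 without background correction and 26 after the RMA-style adjustment. The causes were not tested. The map1 level in lsg1Δ stood above 0.828% of features when only probes above background on both arrays were used, which by construction removes dim probes of other features too. The count of lower features was 39 to 66, that of Ste11 targets 15 to 16, and the remaining percentiles stayed within the SD of their probes. Low signal limits map1, with 2 of 7 probes below background in lsg1Δ. All 7 read above the highest lsg1 spot of that array. The planned search for promoter motifs was not run, as no sequence was at hand.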

Other observations

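In the RefSeq gene order, map1 has 1 named feature among the 5 protein-coding genes on each side, the phosphatase gene pyp3, with vma4 and nse6 between them. The log2 ratio of pyp3 was -0.92 (SD 0.14 over 7 probes). None of the 5 protein-coding genes on either side of ste11 is a named feature, and their own ratios are not analysed here. RefSeq annotates 2 long noncoding RNAs that overlap ste11 and 2 that overlap map1. The sources used here do not say whether labeling kept the strand, so the signal of each gene cannot be told apart from that of RNA overlapping its probes.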
